A study of Rattus norvegicus with 25 samples.

Results

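The comparison described here was between gingiva of rats with experimental periodontitis given a hydrogel with curcumin and zinc oxide nanoparticles (Cur/ZNP gel) and gingiva of such rats given a hydrogel with zinc oxide nanoparticles alone (ZNP gel). The members were the 10 libraries of these 2 groups, chosen by their labels, out of 25 libraries in the series, and all genes of the table were examined in them. Of 30214 genes obtained by summing transcripts, 16062 had a CPM (counts scaled to the same total in each library) of at least 2 in at least 1 of the 25 libraries and were tested. The Cur/ZNP gel held 1 mg/mL of curcumin and 1 mg/mL of zinc oxide, and the ZNP gel held 0 mg/mL of curcumin and 2 mg/mL of zinc oxide. The addition of curcumin and the lower dose of zinc oxide therefore cannot be told apart. All rats of both groups were wild-type Sprague-Dawley animals, 6 weeks old in the labels and 8 weeks old in the methods, males by the methods. All had silk tied around the maxillary first molars and smeared with Porphyromonas gingivalis, and each received 200 μL of gel a week for 4 weeks. The carrier of both gels was methylcellulose, which sets at body temperature. Each group had 5 rats with 1 library per rat. The other 3 groups of the series were periodontitis without drug (EP), a gel with 2 mg/mL of curcumin (Cur gel) and sham surgery with drug-free gel (Sham), and they entered the model to estimate the spread. A ligature model produces inflammation within weeks and covers only a short stretch of what is a slow disease in people.

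Periodontitis is a bacterial inflammation of the gum in which bone around the teeth is resorbed. Gingiva holds a stratified keratinocyte layer, a connective tissue of fibroblasts and collagen, vessels, nerves and leukocytes, and a sample cut from it can include underlying muscle and small salivary glands. Bone loss is driven by osteoclasts, which form when RANKL binds its receptor RANK, and osteoprotegerin is the decoy receptor that captures RANKL. Curcumin is a plant polyphenol known for acting on NF-kB and on the antioxidant regulator NRF2. Zinc released from zinc oxide is known to induce metallothioneins, small proteins that bind the metal.

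Libraries held 58815120 to 62712128 reads in the Cur/ZNP gel and 59749001 to 81791804 reads in the ZNP gel. Every value below is a normalized count, that is, a read count divided by the size factor of its library. Keratinocyte genes (Krt5, Krt14, Krt13, Krt4, Krt10), collagen genes (Col1a1, Col3a1) and the leukocyte gene Ptprc were present in all 10 libraries. The endothelium gene Pecam1 was sought, but no gene was listed under that symbol. Correlations of log2 values between libraries ranged from 0.855 to 0.953 within the Cur/ZNP gel and 0.894 to 0.951 within the ZNP gel, and from 0.862 to 0.963 between the groups. Some libraries stood apart before any comparison was made. Genes of salivary glands took 0.0759%, 7.0%, 10.4%, 0.0849% and 0.0251% of the reads in Cur/ZNP gel libraries 1 to 5, against 4.69%, 11.4%, 0.411%, 5.74% and 4.92% in ZNP gel libraries 1 to 5. Gland RNA was thus scarce in Cur/ZNP gel 1, 4 and 5 and in ZNP gel 3, and gland-poor and gland-rich below refer to this RNA. Cur/ZNP gel 2 alone held many nerve transcripts, and ZNP gel 1 held many interferon-stimulated transcripts. In bulk tissue, fewer cells of a type and less RNA per cell cannot be told apart.

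No gene rose or fell past the threshold between the Cur/ZNP gel and the ZNP gel. With limma on log2(normalized count + 1), 0 of 16062 genes (0%) had an adjusted p under 0.05, and the smallest adjusted p was 0.749. At an unadjusted p under 0.05, 387 genes (2.41%) were higher and 433 genes (2.7%) were lower in the Cur/ZNP gel. Every Cur/ZNP gel library lay above every ZNP gel library in 69 genes (0.43%) and below every one in 86 genes (0.535%). The log2 difference was above 0 in 7531 genes (46.9%), and its median over all genes was -0.02. The median standard error was 0.25, with a median 95% half-width of 0.52 on the log2 scale. Smaller differences were generally not detectable with 5 libraries a group, even before adjustment. The threshold adjusted over 16062 genes is stricter, so larger differences could also miss it. DESeq2 on the whole reads called 24 of 16049 genes (0.15%), 22 higher and 2 lower, and edgeR with TMM factors called 0 genes with 862 at an unadjusted p under 0.05. These count models placed 64.5% and 65.1% of their unadjusted calls on the higher side, against 47.2% with limma. Leaving out ZNP gel 3 gave 1578 genes at an unadjusted p under 0.05 and 1 adjusted call, Ldb2 (log2 difference 0.89, adjusted p = 0.0226), and leaving out ZNP gel 2 gave 411. The balance of directions moved with single libraries, with 306 higher and 732 lower genes without Cur/ZNP gel 2 but 412 higher and 193 lower without Cur/ZNP gel 1. The background for each list below is the share over all genes: 2.41% higher, 2.7% lower and 46.9% above 0. Fits with 1 library left out had their own background. Of 16062 genes, 288 were higher and 250 lower without ZNP gel 1. The counts were 148 and 263 without ZNP gel 2, and 716 and 862 without ZNP gel 3. They were 513 and 813 without Cur/ZNP gel 3, 354 and 418 without Cur/ZNP gel 4, and 276 and 169 without Cur/ZNP gel 5. With the log2 summed salivary gland level as a covariate, 311 were higher and 329 lower. Single genes below are given with the log2 difference (Cur/ZNP gel minus ZNP gel), its SE and its 95% interval from limma, and none of them passed the threshold.

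The main axes of variation among the 10 libraries were led by genes of particular tissues. The first principal component held 34.3% of the variance, with gland genes such as Muc5b, Foxa1 and Smgc at its high end. Its scores were -95.4, 50.3, 18.2, -16.8 and -114 in the Cur/ZNP gel libraries, against 55.9, 49.3, -1.29, 42.9 and 11 in the ZNP gel libraries. The groups overlapped (mean -31.6 ± 71.2 in the Cur/ZNP gel and 31.6 ± 25.2 in the ZNP gel, SD, n = 5 each; exact permutation p = 0.119, adjusted over 3 components 0.357). Without Cur/ZNP gel 2 the difference between the means was -83.1, against -63.1 with it, and the exact permutation p was 0.0397. The second component (18.4%) had hair-type keratins at its high end and the third (14.0%) had nerve genes at its low end, and neither separated the groups (two-sided exact permutation p = 0.722 and 0.437, adjusted 0.722 and 0.655). The smallest p this exact permutation test can give with 5 libraries a group is 0.00794.

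**Figure D1:**
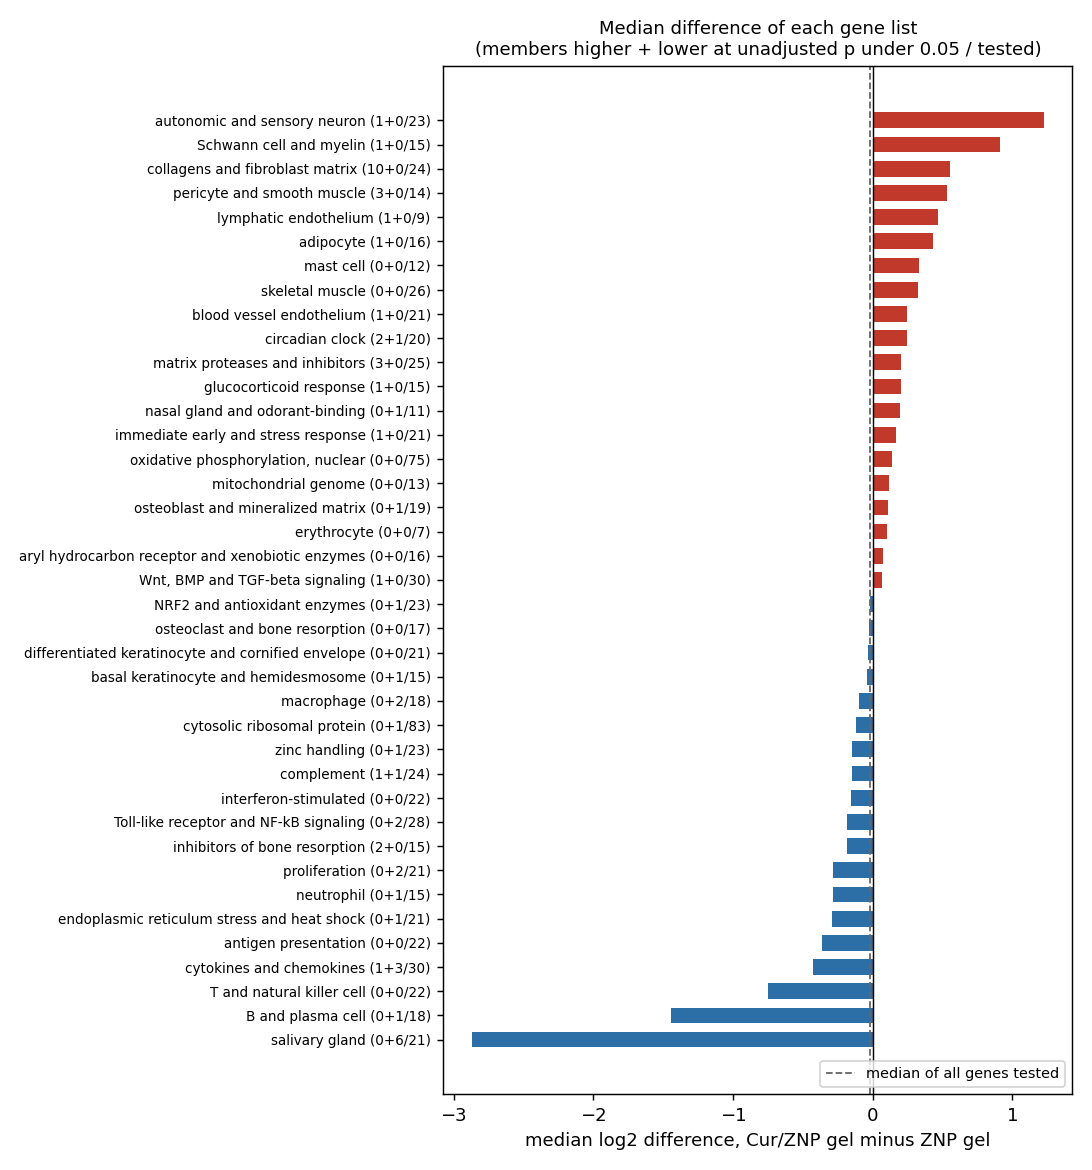
Median log2 difference (Cur/ZNP gel minus ZNP gel, horizontal axis) of each of 39 gene lists, with each name followed by its members past an unadjusted p of 0.05 in each direction (higher, then lower) and the number tested. The lists of neurons (1.23), Schwann cells (0.91) and fibroblast matrix (0.56) have the highest medians and salivary gland (-2.87) and B and plasma cells (-1.45) the lowest, against -0.02 over all genes (dashed line).

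Circadian clock genes held the gene with the smallest p of the whole comparison. The clock is a feedback loop in which BMAL1 and CLOCK switch on Per, Cry and Nr1d genes through E-box sequences, while the Nr1d proteins in turn repress Bmal1. Of 20 clock genes tested, 2 were higher and 1 lower (unadjusted p under 0.05), 14 had a difference above 0, and the median was 0.24. Over all genes, 2.41% were higher, 2.7% lower and 46.9% above 0. Nr1d1 (chr10:86683875-86690815, minus strand, Rnor_6.0) encodes REV-ERBα, a repressor of Bmal1. It had 10889, 8474, 7916, 8510.3 and 8483 in the Cur/ZNP gel and 5957, 4937, 5861, 3079 and 4065 in the ZNP gel. All 5 Cur/ZNP gel libraries were above all 5 ZNP gel libraries. The mean was 8854 ± 1164 in the Cur/ZNP gel and 4780 ± 1223 in the ZNP gel (SD, n = 5 each), a log2 difference of 0.92 (SE 0.18, 95% interval 0.54 to 1.30, adjusted p = 0.749). DESeq2 called Nr1d1 with adjusted p = 0.00273 on 25 libraries and 0.0162 on the 10 alone, and edgeR gave an adjusted p of 0.885. In the other groups it ranged over 5384 to 7696 in the Cur gel, 8677 to 12230.1 in EP and 6689 to 13790.0 in Sham, and 3 of 5 ZNP gel libraries lay below every library of those groups. Nr1d1 shares 1059 bases with Thra on the opposite strand, whose log2 difference was 0.47 (SE 0.22). The libraries kept strand, but whether the counting used it is not given in the sources used here.

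Other arms of the loop differed less. Nr1d2, the second REV-ERB gene, had 11379.5, 10874, 11609.9, 11719.7 and 13125 in the Cur/ZNP gel, against 9139, 11122, 8949, 8252 and 9116 in the ZNP gel. Only ZNP gel 2 reached the range of the Cur/ZNP gel (log2 difference 0.34, SE 0.15, 95% interval 0.04 to 0.64). Bhlhe41, which encodes the E-box repressor DEC2, had 1240.2, 1127, 1004, 1100.2 and 1012 in the Cur/ZNP gel libraries, against 921, 839.7, 678, 640.3 and 823 in the ZNP gel libraries. The groups did not overlap (log2 difference 0.50, SE 0.26, 95% interval -0.04 to 1.04). Dbp, an activator that follows the clock, had 16581, 14632, 15893, 15515 and 16389 in the Cur/ZNP gel and 11308, 15849.5, 9776, 6643 and 10301 in the ZNP gel. ZNP gel 2 was again within the Cur/ZNP gel range while the other 4 ZNP gel libraries were below it (log2 difference 0.61, SE 0.33, 95% interval -0.07 to 1.28). Tef, of the same activator family, gave a log2 difference of 0.31 (SE 0.18) and Ciart, a repressor of the loop, 0.49 (SE 0.33). Per1 was 0.31 (SE 0.15) while Per2 was -0.37 (SE 0.25). Cry1 and Arntl had negative log2 differences. Cry1, a repressor of BMAL1 and CLOCK, had 1069, 856, 1005, 1308 and 1297 in the Cur/ZNP gel, against 1232, 1471, 1342, 1707 and 2009.7 in the ZNP gel. Cur/ZNP gel 4 and 5 overlapped the ZNP gel and the other 3 lay below it (log2 difference -0.48, SE 0.19, 95% interval -0.88 to -0.09). Arntl, the gene of BMAL1, had 217, 469, 226, 234 and 225 in the Cur/ZNP gel libraries, against 372, 308, 323, 419 and 396 in the ZNP gel libraries. Here 4 of 5 Cur/ZNP gel libraries were below the ZNP gel, and Cur/ZNP gel 2 was the highest of all 10 (log2 difference -0.47, SE 0.25, 95% interval -0.98 to 0.04). The hour at which each rat was sampled is not given in the sources used here. Without Cur/ZNP gel 2 the median of the list was 0.35, and with the log2 summed salivary gland level as a covariate it was 0.12, where Nr1d1 had a log2 difference of 0.82 and stayed at an unadjusted p under 0.05.

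The promoters of 4 clock genes are shown because the loop acts through short sequences in them, 1 with neither sequence sought and 3 with one of them. They are the 250 bases before the annotated start (RefSeq, GRCr8), 5′ to 3′ on the strand of the gene, with capitals marking an E-box (CACGTG) or a nuclear receptor half-site (AGGTCA), both searched on both strands. Nr1d1 (chr10:84231813-84232062, minus strand) held neither, Ciart (chr2:186112247-186112496, minus strand) held 3 E-boxes, Bhlhe41 (chr4:180569356-180569605, minus strand) held 1 E-box, and Arntl (Bmal1 in RefSeq, chr1:176766078-176766327, plus strand) held 1 half-site. Of 11 clock promoters searched, 3 held an E-box (the third was Tef), 2 held a half-site (the other was Nr1d2) and 6 held neither (Nr1d1, Dbp, Per1, Per2, Per3 and Npas2).
Nr1d1: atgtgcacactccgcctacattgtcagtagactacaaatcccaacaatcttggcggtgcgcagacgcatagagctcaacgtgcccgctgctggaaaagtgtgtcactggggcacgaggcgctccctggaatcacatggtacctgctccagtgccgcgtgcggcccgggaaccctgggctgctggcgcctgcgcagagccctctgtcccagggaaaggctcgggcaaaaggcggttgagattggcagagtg
Ciart: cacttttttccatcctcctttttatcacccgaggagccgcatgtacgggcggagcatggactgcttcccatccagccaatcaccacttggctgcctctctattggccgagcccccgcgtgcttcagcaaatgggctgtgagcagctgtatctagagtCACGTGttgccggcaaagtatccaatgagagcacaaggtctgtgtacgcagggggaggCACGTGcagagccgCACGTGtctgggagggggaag
Bhlhe41: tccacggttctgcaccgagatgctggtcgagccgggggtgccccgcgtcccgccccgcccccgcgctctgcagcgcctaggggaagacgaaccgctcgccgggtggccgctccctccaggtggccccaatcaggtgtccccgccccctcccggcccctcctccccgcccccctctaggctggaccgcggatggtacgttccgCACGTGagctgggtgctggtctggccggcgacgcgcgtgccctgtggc
Arntl: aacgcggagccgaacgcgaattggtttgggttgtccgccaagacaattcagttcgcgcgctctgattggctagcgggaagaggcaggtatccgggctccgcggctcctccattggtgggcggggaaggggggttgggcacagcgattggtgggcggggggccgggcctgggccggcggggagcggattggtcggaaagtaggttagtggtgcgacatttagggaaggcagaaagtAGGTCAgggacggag
An E-box stood in 1872 of 33469 windows of this length (5.59%) and a half-site in 4707 (14.1%). A match describes the letters only, and the absence of one in this window says nothing about sites elsewhere in the gene.

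**Figure D2:**
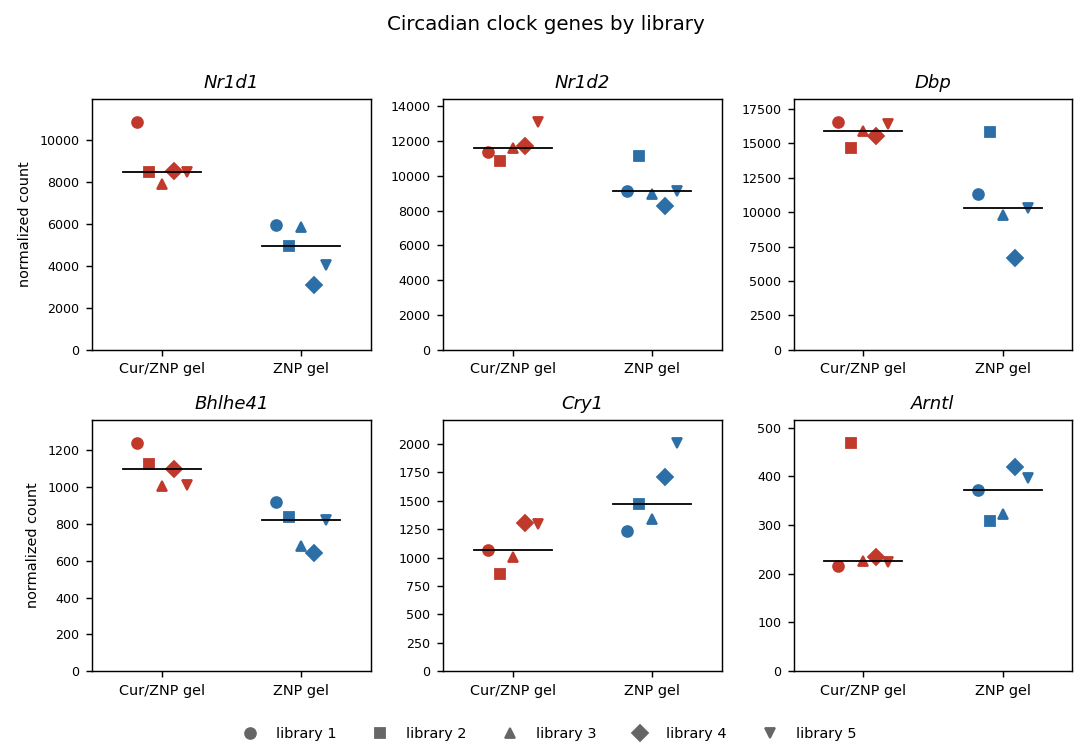
Normalized counts of 6 circadian clock genes (vertical axes from 0) in the 5 Cur/ZNP gel libraries and the 5 ZNP gel libraries, with symbols for the library number and lines at the medians. Nr1d1 and Bhlhe41 do not overlap between the groups, and Arntl is low in 4 of 5 Cur/ZNP gel libraries with library 2 at 469.

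Fibroblast matrix genes were the list with the most members at an unadjusted p under 0.05. Of 24 collagens, proteoglycans and other matrix genes tested, 10 were higher and 0 lower, against 2.41% and 2.7% over all genes, 22 had a difference above 0, and the median was 0.56. Dcn encodes decorin, a proteoglycan that binds collagen fibrils, and had 70267, 65471, 64332, 80930.1 and 70787 in the Cur/ZNP gel and 43032, 28406, 71367, 41117 and 44641 in the ZNP gel. ZNP gel 3 lay inside the Cur/ZNP gel range and the other 4 ZNP gel libraries lay below it (log2 difference 0.68, SE 0.21, 95% interval 0.24 to 1.12). Sparc, a matrix glycoprotein, showed the same order, with 89014, 137514, 89557, 115989 and 76836 in the Cur/ZNP gel, against 50922, 43191, 102915, 58704 and 53990.5 in the ZNP gel (log2 difference 0.75, SE 0.26, 95% interval 0.22 to 1.29). Col3a1, the chain of fibrillar type III collagen, had 184119.7, 111057, 175418, 245263 and 140381 in the Cur/ZNP gel libraries, against 91039.5, 53793, 163925, 103945 and 88538 in the ZNP gel libraries (log2 difference 0.81, SE 0.32, 95% interval 0.15 to 1.47). Its Cur/ZNP gel libraries were all above 4 of the 5 ZNP gel libraries. Col15a1, a collagen of the basement membrane zone around vessels, was the member with no overlap, at 6372, 5837, 5586, 6508 and 6054 in the Cur/ZNP gel and 3439, 2169, 4936, 4144 and 4341 in the ZNP gel (log2 difference 0.73, SE 0.24, 95% interval 0.22 to 1.23). Fbn1, which encodes the microfibril protein fibrillin 1, had 12534, 9504, 9043, 11474 and 13883 in the Cur/ZNP gel, against 6976, 4055, 9714, 7676 and 7006 in the ZNP gel. ZNP gel 3 again overlapped the Cur/ZNP gel (log2 difference 0.71, SE 0.29, 95% interval 0.11 to 1.30). Also at an unadjusted p under 0.05 were Ogn (log2 difference 0.79, SE 0.30), Fn1 (0.64, SE 0.27) and the fibroblast receptor gene Pdgfra (0.48, SE 0.19). Col1a1, the main collagen chain of gum, had a log2 difference of 0.54 with an SE of 0.36.

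The summed level of the matrix list was 717915, 593371, 657217, 858887 and 556851 in the Cur/ZNP gel libraries, against 401781, 291337, 724951, 453369 and 395595 in the ZNP gel libraries. ZNP gel 3, the ZNP gel library with the least gland RNA, was the one that reached the Cur/ZNP gel range. However, Cur/ZNP gel 2 and 3, which were gland-rich, had matrix sums of 593371 and 657217. The gland-rich ZNP gel libraries, all but ZNP gel 3, had at most 453369. The part of gland RNA in the matrix difference was not tested. Without ZNP gel 3, 16 of the 24 genes were higher at an unadjusted p under 0.05 with a median of 0.78. Over all 16062 genes, 716 were higher in that fit. Without ZNP gel 2, the library with the most gland RNA, 3 of the 24 were higher, with a median of 0.40. Over all genes, only 148 were higher in that fit, against 387 with all libraries. With the summed gland level as a covariate, 6 of 24 were higher and 0 lower, the median was 0.50, and Dcn had a log2 difference of 0.67.

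**Figure D3:**
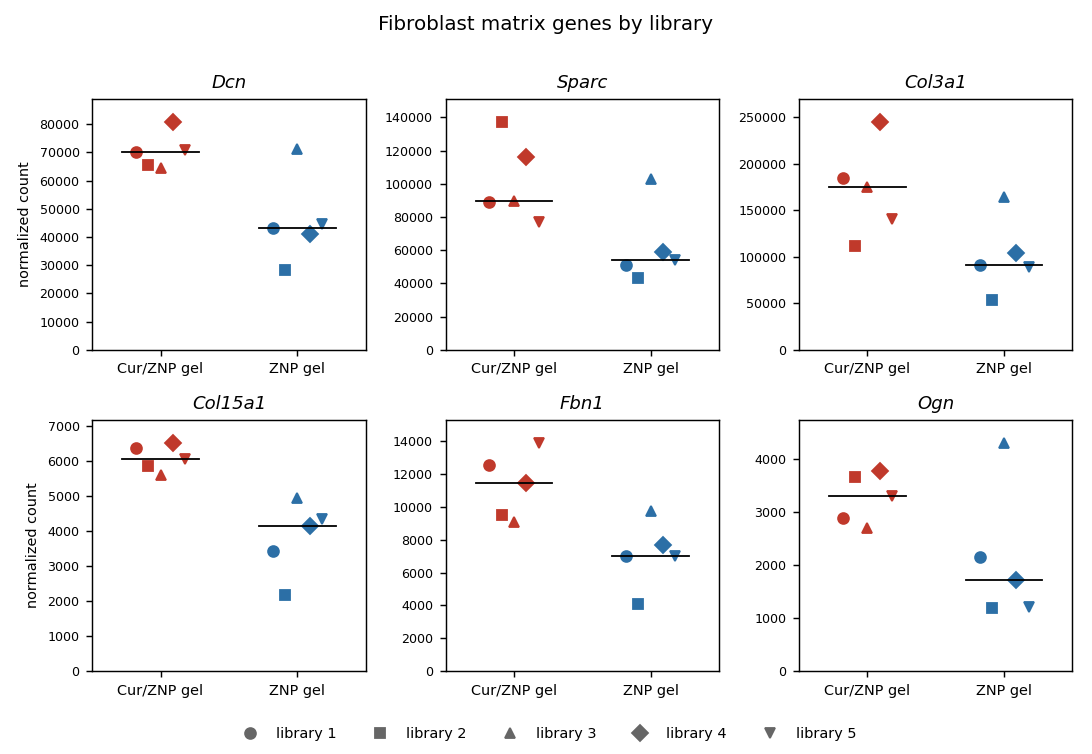
Normalized counts of 6 fibroblast matrix genes (vertical axes from 0) in the 5 Cur/ZNP gel libraries and the 5 ZNP gel libraries, with symbols for the library number and lines at the medians. In Dcn, Sparc, Col3a1, Fbn1 and Ogn only ZNP gel 3 reaches the Cur/ZNP gel range, and Col15a1 does not overlap.

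Enzymes that cut matrix and their inhibitors had a smaller shift. Of 25 tested, 3 were higher and 0 lower (unadjusted p under 0.05), 16 had a difference above 0, and the median was 0.21. Timp3, a matrix-bound inhibitor of metalloproteinases, had 11642, 12615, 11942, 9346 and 12675 in the Cur/ZNP gel and 7010.1, 6283, 9191, 8169.7 and 7337 in the ZNP gel. The groups did not overlap (log2 difference 0.62, SE 0.28, 95% interval 0.05 to 1.19). DESeq2 called Timp3 on the 10 libraries alone (adjusted p = 0.00886) but not on 25. Adamts5, an aggrecan-cutting protease, had 638, 1103, 663, 777 and 1146 in the Cur/ZNP gel, against 420.3, 310.5, 780.0, 558 and 379.7 in the ZNP gel. ZNP gel 3 overlapped the Cur/ZNP gel (log2 difference 0.85, SE 0.28, 95% interval 0.27 to 1.44). Mmp19 differed by 0.37 (SE 0.16). Mmp9, the gelatinase of neutrophils and osteoclasts, had 3715, 934, 56.4, 116 and 74.4 in the Cur/ZNP gel libraries, against 739, 216, 267, 46.2 and 134 in the ZNP gel libraries. Cur/ZNP gel 1 was the 1 high library (log2 difference 0.54, SE 0.94, 95% interval -1.40 to 2.48), and without that library the log2 difference was -0.40.

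Among genes whose libraries did not overlap, 12 higher genes had the smallest p. Tbx18, a T-box transcription factor of pericytes and other mural cells, had 502, 426, 263, 493 and 518 in the Cur/ZNP gel and 77.9, 132, 209.8, 158 and 228 in the ZNP gel. Its 2 groups were apart by little, since Cur/ZNP gel 3 had 263 and ZNP gel 5 had 228 (log2 difference 1.50, SE 0.42, 95% interval 0.62 to 2.37). Npy1r, the Y1 receptor for neuropeptide Y that sits on vessel walls, had 1162, 1314, 1260.3, 1801 and 1645 in the Cur/ZNP gel, against 687, 475, 1107, 1151 and 807 in the ZNP gel (log2 difference 0.82, SE 0.26, 95% interval 0.28 to 1.35). Kcne4, a regulatory subunit of potassium channels, had 163, 208, 146, 165 and 239 in the Cur/ZNP gel libraries, against 69, 50.2, 122, 129.8 and 71.8 in the ZNP gel libraries (log2 difference 1.12, SE 0.33, 95% interval 0.42 to 1.81). Every one of these 3 genes was lowest in ZNP gel 1 or 2. Edar, the receptor for ectodysplasin in tooth and skin appendage formation, had 326, 132, 183, 212 and 341 in the Cur/ZNP gel and 115, 112, 126, 126 and 132 in the ZNP gel. The ZNP gel values lay close together, between 112 and 132, and those of the Cur/ZNP gel spread over 132 to 341 (log2 difference 0.88, SE 0.25, 95% interval 0.36 to 1.39). Mill1, which encodes a class I-like molecule outside the classical MHC, had 350.5, 948, 404, 482 and 480.1 in the Cur/ZNP gel, against 260.4, 79.6, 313, 151 and 184 in the ZNP gel (log2 difference 1.48, SE 0.41, 95% interval 0.64 to 2.32). Its highest value was in Cur/ZNP gel 2, as were those of Eml6 (log2 difference 1.08, SE 0.27), Dgkb (0.99, SE 0.28) and Micu3 (0.51, SE 0.17). Eml6 was called by DESeq2 on 25 libraries (adjusted p = 0.0346) but not on the 10 alone (0.112). Tbx18 was called by DESeq2 on the 10 alone (adjusted p = 0.00886) but not on 25. Eml6 encodes a microtubule-binding protein, Dgkb a diacylglycerol kinase and Micu3 a regulator of mitochondrial calcium uptake. The zinc finger gene Zmym4 (0.24, SE 0.08) and the ubiquitin ligase gene Mid1 (0.27, SE 0.10) complete the 12, beside Nr1d1 and Col15a1.

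The 12 lower genes with the smallest p were likewise taken from those whose libraries did not overlap, so that absence of overlap is no result. Their log2 differences ran between -0.50 (Rfx1) and -0.22 (Pygo2). Raver1, a partner of splicing repressor PTB, had 2741, 2885, 2929, 2970.4 and 2980.0 in the Cur/ZNP gel libraries, against 3382, 3554, 3201, 3938 and 3509.6 in the ZNP gel libraries (log2 difference -0.27, SE 0.08, 95% interval -0.44 to -0.11). Rbm14, an RNA-binding protein of paraspeckles, had 1282, 1450.4, 1452, 1420.1 and 1450.3 in the Cur/ZNP gel and 1606, 1577, 1599, 2196 and 2044 in the ZNP gel (log2 difference -0.34, SE 0.10, 95% interval -0.55 to -0.14). ZNP gel 4 and 5 were the high libraries of Rbm14, and the other 3 lay close together. H2az1, which encodes the histone variant H2A.Z, had 3188, 3154, 3496, 3297 and 3432 in the Cur/ZNP gel, against 4352, 4558, 3879, 3898 and 4567 in the ZNP gel (log2 difference -0.36, SE 0.13, 95% interval -0.62 to -0.09). It lies within the span of Dnajb14, which had a log2 difference of 0.07 (SE 0.19). Tmem129, a ubiquitin ligase of the endoplasmic reticulum, had 1018, 1178, 1359, 1312 and 1129.9 in the Cur/ZNP gel libraries, against 1618, 1784, 1451, 1634 and 1625 in the ZNP gel libraries (log2 difference -0.44, SE 0.12, 95% interval -0.69 to -0.19). Rfx1, a transcription factor, had 868, 1355, 1649.6, 1389 and 1182 in the Cur/ZNP gel and 1898, 1670.0, 1867, 1830.3 and 1696 in the ZNP gel (log2 difference -0.50, SE 0.17, 95% interval -0.85 to -0.16). Its values stood within 1670 to 1898 in the ZNP gel and were more spread, 868 to 1650, in the Cur/ZNP gel. The others were the RNA decapping enzyme Dxo (-0.47, SE 0.15), the telomerase and Cajal body protein Wrap53 (-0.40, SE 0.14), the Wnt co-activator Pygo2 (-0.22, SE 0.08), Shkbp1 (-0.36, SE 0.12), Zfp707 (-0.37, SE 0.13), Tmem229b (-0.40, SE 0.15) and LOC103692719 (-0.44, SE 0.12). LOC103692719 spans Coa8 and Bag5l1, which had log2 differences of 0.01 and -0.0049. DESeq2 on the 10 libraries alone called H2az1 (adjusted p = 0.00319), Dxo (0.00877), Wrap53 (0.0213), LOC103692719, Tmem129 and Raver1 (each 0.0273). On 25 libraries it called none of these 12 lower genes.

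**Figure D4:**
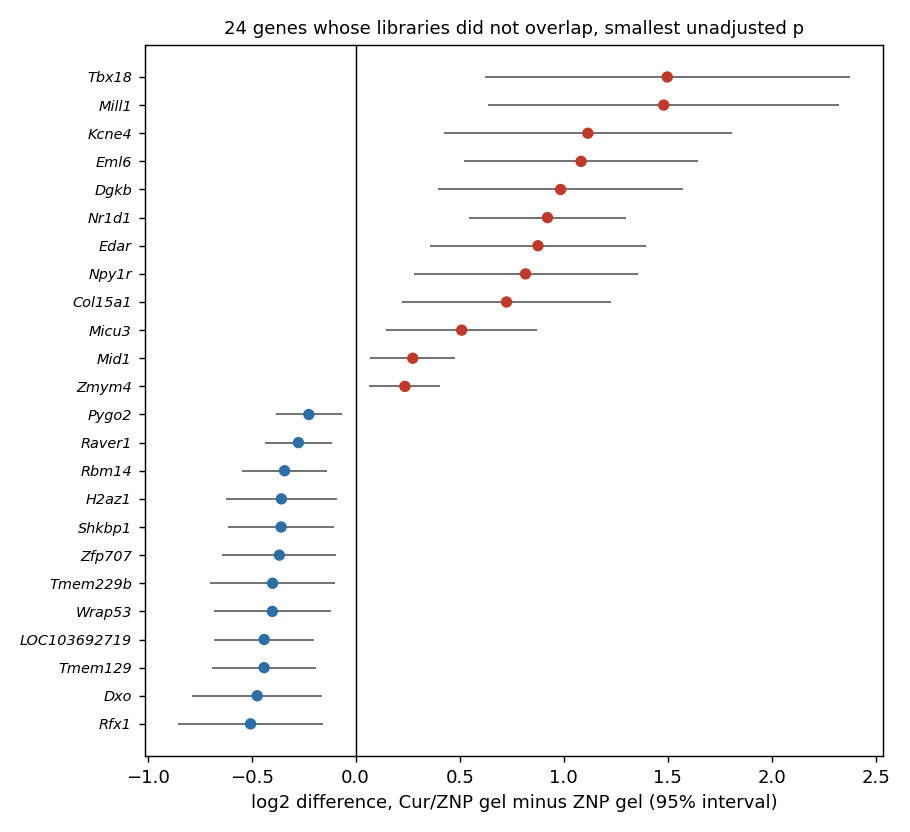
Log2 difference (Cur/ZNP gel minus ZNP gel, horizontal axis) with its 95% interval for the 12 higher and 12 lower genes of smallest unadjusted p whose libraries did not overlap. The higher genes run to 1.50 (Tbx18) and the lower ones to -0.50 (Rfx1).

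Of the genes outside the 24, 3 were picked after their values were seen because DESeq2 called them and several libraries carried the difference. Cyp26a1, the enzyme that degrades retinoic acid, had 9.57, 47.1, 26.8, 0 and 3.97 in the Cur/ZNP gel, against 325, 304, 52.7, 58.4 and 65.8 in the ZNP gel. The groups did not overlap, and the log2 difference was -3.64 (SE 0.77, adjusted p = 0.827 in limma and 0.00453 in DESeq2 on 25 libraries, but 0.205 in DESeq2 on the 10 alone). ZNP gel 1 and 2 held about 5 times the level of the other 3 ZNP gel libraries, and in the other groups Cyp26a1 ranged over 40.8 to 142 in the Cur gel, 32.2 to 73.3 in EP and 42.7 to 153 in Sham. Chit1, the chitinase secreted by macrophages, had 137, 86.1, 81.4, 62.3 and 72.4 in the Cur/ZNP gel libraries, against 39.8, 24.2, 32.9, 25.3 and 26.5 in the ZNP gel libraries. All Cur/ZNP gel libraries were above the ZNP gel (log2 difference 1.50, SE 0.39, 95% interval 0.69 to 2.31), and DESeq2 gave adjusted p = 0.0233 on 25 libraries and 0.00263 on the 10. Prrg1 had a log2 difference of 0.82 (SE 0.20), with its highest value, 1517, in Cur/ZNP gel 2. Its span shares 107962 bases with Obp1f on the same strand. Obp1f was also highest in Cur/ZNP gel 2, at 29281, and had a log2 difference of 1.07 (SE 2.57). The macrophage list as a whole had a median of -0.10.

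Gland epithelium was the list with the lowest median. Of 21 salivary gland genes tested, 0 were higher and 6 lower (unadjusted p under 0.05), 1 had a difference above 0, and the median was -2.87. Over all genes, 2.41% were higher, 2.7% lower and 46.9% above 0. The summed level was 41418, 4122474, 5673779, 46993 and 15539.7 in the Cur/ZNP gel and 2527276, 6483218, 201979, 3287148 and 3444422 in the ZNP gel. Cur/ZNP gel 2 and 3 matched the gland-rich ZNP gel libraries. ZNP gel 3 was the lowest of its group at 201979, yet it lay above Cur/ZNP gel 1, 4 and 5. Muc5b, the main gel-forming mucin of mucous glands, had 22793, 2951080.5, 4143725, 21694 and 1797 in the Cur/ZNP gel, against 1785637, 4493437, 132899, 2473182 and 2111706 in the ZNP gel (log2 difference -3.79, SE 2.17, 95% interval -8.30 to 0.71). The water channel gene Aqp5 had 96.5, 9397, 11463, 750.5 and 13.9 in the Cur/ZNP gel libraries, against 6591, 18162, 532, 8109.6 and 14136 in the ZNP gel libraries (log2 difference -3.19, SE 1.43, 95% interval -6.16 to -0.21). Krt18, a keratin of simple epithelium, had 57.4, 5416, 7149, 464 and 45.6 in the Cur/ZNP gel and 7215, 14711, 543, 5757 and 10306 in the ZNP gel (log2 difference -3.22, SE 1.27, 95% interval -5.85 to -0.58). Spdef, a regulator of mucous secretory cells, was -3.46 (SE 1.44) and the disulfide isomerase gene Agr2 was -3.44 (SE 1.57). The summed gland level used as a covariate elsewhere is the sum of these same genes, so a fit with it says nothing about this list. Leaving out Cur/ZNP gel 2 or Cur/ZNP gel 3 put 14 of 21 genes at an unadjusted p under 0.05, and leaving out Cur/ZNP gel 1 or Cur/ZNP gel 5 put 0 there. Over all 16062 genes, 732 were lower without Cur/ZNP gel 2 and 813 without Cur/ZNP gel 3. These counts were 193 without Cur/ZNP gel 1 and 169 without Cur/ZNP gel 5. Nasal gland genes, which carry odorant-binding proteins, had a median of 0.20 over 11 genes (0 higher, 1 lower) that ran between -0.45 and 0.81 with 1 library left out, and Bpifb1 gave -3.68 (SE 1.69).

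**Figure D5:**
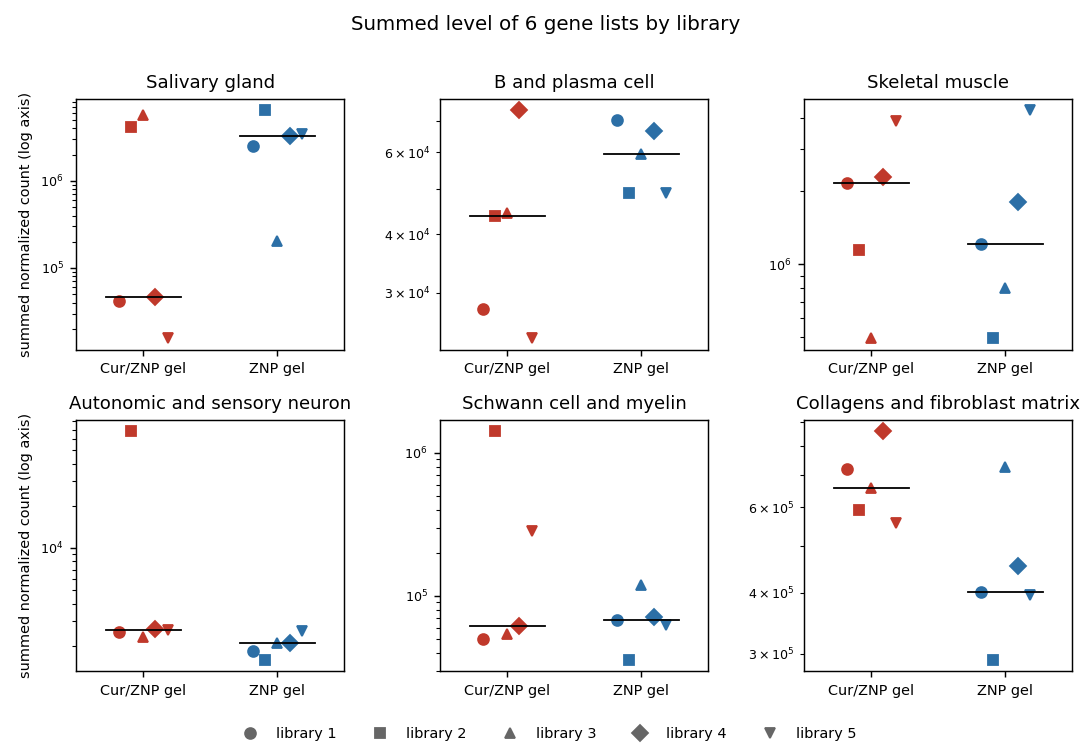
Summed normalized count (log axes) of 6 gene lists in the 5 Cur/ZNP gel libraries and the 5 ZNP gel libraries, with symbols for the library number and lines at the medians. Cur/ZNP gel 1, 4 and 5 and ZNP gel 3 hold the least salivary gland RNA, and Cur/ZNP gel 2 alone stands out in the neuron list at 67877.

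Lists of B, T and antigen-presenting cells had medians below 0, and 0 of their genes passed the threshold. Plasma cells make the antibody of gum and of salivary glands, and the B and plasma cell list had a median of -1.45 over 18 genes, 0 higher and 1 lower. With 1 library left out that median ran between -2.17 (without Cur/ZNP gel 4, 8 lower) and -0.95 (without Cur/ZNP gel 5, 0 lower), and it was -0.59 with edgeR and TMM factors. Jchain, which joins secreted antibody units, had 157, 13438, 3219.6, 24357 and 319 in the Cur/ZNP gel, against 27369, 5433, 16973, 18684 and 10304 in the ZNP gel. Cur/ZNP gel 1 and 5 held the least and Cur/ZNP gel 2 and 4 were inside the ZNP gel range (log2 difference -2.63, SE 1.26, 95% interval -5.24 to -0.02). Mzb1, a plasma cell chaperone, had 5.22, 772, 220.1, 3499 and 31.7 in the Cur/ZNP gel libraries, against 2048, 266, 2091, 1983 and 634 in the ZNP gel libraries (log2 difference -2.71, SE 1.40, 95% interval -5.60 to 0.19). With the summed gland level as covariate, the list had a median of -1.35, and Jchain had -1.85. T and natural killer cell genes had 21 of 22 differences below 0 and a median of -0.75, with 0 genes at an unadjusted p under 0.05 in either direction (Cd247 -1.08, SE 0.73). Antigen presentation genes had 21 of 22 below 0 and a median of -0.37, again with 0 at an unadjusted p under 0.05. Over all genes, 46.9% had a difference above 0. Without ZNP gel 1 the medians of these T cell and antigen presentation lists were -0.48 and -0.10. Tapbp, which loads peptide on MHC class I, was -0.54 (SE 0.27), and the class I gene RT1-A2 was -0.75 (SE 0.64), or 0.10 with the gland covariate. In mast cells, which store proteases and histamine, 10 of 12 genes were above 0 with a median of 0.33 and 0 at an unadjusted p under 0.05, or 4 higher without ZNP gel 3.

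The inflammatory genes Cxcl1, Lcn2 and C3 had their highest values in ZNP gel 1 and 2, which were rich in gland RNA. Cxcl1, the neutrophil-attracting chemokine, had 87.8, 622, 180.3, 58.6 and 12.9 in the Cur/ZNP gel and 1340.3, 1477, 167, 193 and 635 in the ZNP gel. Values over 600 were seen in Cur/ZNP gel 2 and in ZNP gel 1, 2 and 5, all gland-rich (log2 difference -2.45, SE 0.96, 95% interval -4.44 to -0.47). Cur/ZNP gel 3 and ZNP gel 4, also gland-rich, had only 180.3 and 193. Lcn2, the iron-siderophore trap of neutrophils and epithelium, had 157, 27073, 9543, 4719.7 and 374 in the Cur/ZNP gel, against 70412, 74586, 3233, 20700.4 and 38501 in the ZNP gel (log2 difference -3.50, SE 1.31, 95% interval -6.23 to -0.78). C3, the central complement protein, had 319, 14939, 2606, 4271 and 451 in the Cur/ZNP gel libraries, against 39473, 33037, 2829, 4752 and 15680.4 in the ZNP gel libraries (log2 difference -2.70, SE 1.25, 95% interval -5.28 to -0.11). Lcn2 and C3 spread over more than 10-fold within each group. With the gland covariate Cxcl1 was -1.44 and Lcn2 -1.83, and neither was at an unadjusted p under 0.05. The part of gland tissue in these differences was not tested.

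The lists of inflammation had few members at an unadjusted p under 0.05. Cytokines and chemokines had 1 higher and 3 lower of 30 with a median of -0.43. The lower ones were Cxcl1, Ccl20 (-2.36, SE 0.96) and Il1a (-0.98, SE 0.44), and the higher one was Il34, a ligand of the macrophage receptor CSF1R (0.43, SE 0.17). With 1 library left out the lower ones numbered between 7 (without Cur/ZNP gel 2, 2 higher) and 0 (without ZNP gel 2 or Cur/ZNP gel 5), and without ZNP gel 1 there were 2 higher and 2 lower with a median of -0.16. Toll-like receptor and NF-kB genes had 0 higher and 2 lower of 28 with a median of -0.18. Those were Cd14, the lipopolysaccharide co-receptor (-1.18, SE 0.49, and -0.44 with the gland covariate), and the NF-kB subunit gene Nfkb2 (-0.51, SE 0.23). The lower ones became 6 without Cur/ZNP gel 2 and 0 without ZNP gel 1 or Cur/ZNP gel 1, 4 or 5. Complement had 1 higher (Cd55, a brake on complement, 0.52, SE 0.23) and 1 lower (C3) of 24, with a median of -0.15. Neutrophil genes had 0 higher and 1 lower (Lcn2) of 15 with a median of -0.28. Macrophage genes had 0 higher and 2 lower of 18 with a median of -0.10, namely Arg1 (-1.92, SE 0.75) and Cd14. Without ZNP gel 1 the medians turned to 0.06 for complement, 0.01 for neutrophil and 0.06 for macrophage genes. The macrophage median was also 0.06 without Cur/ZNP gel 3, and the complement median was 0.12 with the gland covariate. Interferon-stimulated genes had 0 at an unadjusted p under 0.05 in either direction of 22 with a median of -0.16. Their summed level was 25621, 49764, 22058, 23389 and 34973 in the Cur/ZNP gel and 131783, 28620.3, 23172, 21302 and 25509 in the ZNP gel. ZNP gel 1 was over 2-fold above every other library, and it also held the highest Mx1 (11887) and Cxcl10 (3738). Without it the direction of the list turned, with 19 of 22 above 0, 2 higher, 0 lower and a median of 0.29.

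Il1b, Tnf, Il6 and Il4 are the cytokine genes that the study named. Il1b had 228, 2828, 204, 179 and 63.5 in the Cur/ZNP gel, against 2983, 377, 395, 291 and 292 in the ZNP gel. A single library in each group, Cur/ZNP gel 2 and ZNP gel 1, was far above the rest (log2 difference -0.93, SE 0.86, 95% interval -2.72 to 0.86). Tnf had 13.9, 83.1, 10.2, 24.2 and 21.8 in the Cur/ZNP gel libraries, against 131, 82.2, 14.8, 26.1 and 33.4 in the ZNP gel libraries (log2 difference -0.87, SE 0.77, 95% interval -2.47 to 0.74). Il6 stayed below the expression filter, with 0, 13.0, 0, 19.5 and 3.97 in the Cur/ZNP gel, against 34.9, 16.4, 15.6, 0 and 35.1 in the ZNP gel. The interleukin 4 gene was at 0 in all 10 libraries, which allows up to 3 reads per library.

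Genes tied to bone resorption differed in both directions. Ceacam1, a cell adhesion molecule of epithelium and leukocytes that is annotated as restraining bone resorption, had 704, 2481, 2143, 791 and 527 in the Cur/ZNP gel and 2384, 3400.5, 884, 1778 and 2553 in the ZNP gel. The gland-poor libraries Cur/ZNP gel 1, 4 and 5 and ZNP gel 3 had the 4 lowest values, and the groups overlapped (log2 difference -0.88, SE 0.52, 95% interval -1.94 to 0.19). It was -0.12 with the gland covariate, which was chosen after the data were seen. The part of gland RNA in the Ceacam1 difference was not tested. Ceacam1 ranged over 1966 to 3634 in the Cur gel, 1656 to 5430.2 in EP and 542 to 4677 in Sham. Cd47, the "do not eat me" signal of cells, was -0.23 (SE 0.26). Tnfrsf11b, the gene of osteoprotegerin, had 592, 877, 802, 794 and 2344 in the Cur/ZNP gel, against 539, 461, 719.9, 532 and 699.5 in the ZNP gel. Cur/ZNP gel 5 was over 2-fold above every other library, and ZNP gel 3 and 5 overlapped Cur/ZNP gel 1 (log2 difference 0.71, SE 0.34, 95% interval 0.01 to 1.41). Its difference was 0.78 with the gland covariate, no longer at an unadjusted p under 0.05. Sema3a, a guidance protein that inhibits osteoclasts, had 411, 160.3, 413, 468 and 435 in the Cur/ZNP gel libraries, against 179, 242, 281, 296 and 194 in the ZNP gel libraries. Cur/ZNP gel 2 was the lowest of all 10 and the other 4 were above every ZNP gel library (log2 difference 0.59, SE 0.28, 95% interval 0.02 to 1.17). These last 2 genes were the only members of 15 inhibitors of bone resorption at an unadjusted p under 0.05, and the median of the list was -0.18. Without ZNP gel 1, ZNP gel 2 or Cur/ZNP gel 5, 0 members were higher, and Tnfrsf11b was 0.38 without Cur/ZNP gel 5.

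The bone-forming side was led by Alpl and Runx2. Alpl, the tissue-nonspecific alkaline phosphatase that permits mineral deposition, had 604, 2134, 983, 496 and 423 in the Cur/ZNP gel and 1909, 2839, 1246, 1421 and 1597 in the ZNP gel. Cur/ZNP gel 1, 3, 4 and 5 were below every ZNP gel library and Cur/ZNP gel 2 was above 4 of them (log2 difference -1.17, SE 0.39, 95% interval -1.97 to -0.37). It was -0.85 with the gland covariate, still at an unadjusted p under 0.05. Runx2, the master transcription factor of osteoblasts, had 507, 1397, 1379, 651 and 117 in the Cur/ZNP gel, against 1918, 2040.1, 1337, 827 and 687 in the ZNP gel. The groups overlapped (log2 difference -1.06, SE 0.53, 95% interval -2.16 to 0.04). Bglap, the gene of osteocalcin, had 364, 903, 175, 351 and 70.4 in the Cur/ZNP gel libraries, against 449, 669, 1316, 301 and 528 in the ZNP gel libraries (log2 difference -1.09, SE 0.81, 95% interval -2.77 to 0.59). Alpl was the only one of 19 osteoblast genes at an unadjusted p under 0.05, and the median was 0.11. The sign of that median turned with the gland covariate (-0.28) and without ZNP gel 4 (-0.20), Cur/ZNP gel 4 (-0.12), Cur/ZNP gel 2 (-0.02) or ZNP gel 1 (-0.02). Of 17 osteoclast genes 0 were higher or lower at an unadjusted p under 0.05, with a median of -0.03 that ran between -0.11 and 0.07 with 1 library left out. Acp5, the acid phosphatase of osteoclasts and macrophages, was -0.54 (SE 0.32), Itgb3, an osteoclast integrin, was 0.48 (SE 0.40) and Csf1, a growth factor of osteoclast precursors, was 0.26 (SE 0.15).

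Zinc-handling genes were examined because the gels differed in their zinc oxide dose. Of 23 tested, 0 were higher and 1 lower (unadjusted p under 0.05), 16 had a difference below 0, and the median was -0.15. Mt1, a metallothionein, had 398, 556, 372, 262 and 279 in the Cur/ZNP gel and 1074, 573, 332, 559 and 707 in the ZNP gel. The groups overlapped, ZNP gel 1 being highest and ZNP gel 3 within the Cur/ZNP gel range (log2 difference -0.75, SE 0.36, 95% interval -1.50 to 0.01). Slc39a4, which encodes the zinc importer ZIP4, had 32.2, 278, 276, 0 and 27.8 in the Cur/ZNP gel, against 273, 630.5, 51.8, 276 and 395 in the ZNP gel. ZNP gel 3 and Cur/ZNP gel 1, 4 and 5 were the 4 low libraries, the same that were poor in gland RNA (log2 difference -2.75, SE 1.21, 95% interval -5.25 to -0.25). Slc39a8, the importer ZIP8, split the libraries in the same way, with 302, 2499, 3375, 460.3 and 346 in the Cur/ZNP gel libraries, against 2238, 6846, 566, 1855 and 3606 in the ZNP gel libraries (log2 difference -1.43, SE 0.69, 95% interval -2.86 to 0.00). In the fit with the gland covariate, 0 zinc genes were at an unadjusted p under 0.05 and the median of the list was 0.02. The part of gland RNA in the zinc genes was not tested.

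Antioxidant and xenobiotic enzymes, known targets of curcumin in other systems, had medians near 0. Of 23 NRF2 and antioxidant genes, 0 were higher and 1 lower with a median of -0.02. That 1 was Gpx2, a glutathione peroxidase of epithelium, with 4088, 4593, 3654, 3565 and 2875 in the Cur/ZNP gel and 8101, 10834, 3463, 4364 and 5822 in the ZNP gel. ZNP gel 3 overlapped the Cur/ZNP gel, and ZNP gel 4 lay below Cur/ZNP gel 2 (log2 difference -0.69, SE 0.27, 95% interval -1.25 to -0.13). Sod3, the extracellular superoxide dismutase, was 0.56 (SE 0.30). Glutathione reductase (Gsr) was -0.32 (SE 0.18). Of 16 genes of the aryl hydrocarbon receptor and xenobiotic metabolism, 0 differed at an unadjusted p under 0.05, with a median of 0.07 and Cyp1b1 at 0.41 (SE 0.27).

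Nerve genes had a high median that rested on 1 library. All 23 neuron genes tested had a difference above 0, 1 of them at an unadjusted p under 0.05, and the median was 1.23. The summed level was 2490.0, 67877, 2301, 2629 and 2573 in the Cur/ZNP gel, against 1821, 1588, 2081, 2077 and 2563 in the ZNP gel. Without Cur/ZNP gel 2, the median was 0 and 11 of 23 were above 0. Slc5a7, the choline transporter of cholinergic nerves, had 6.96, 1637, 73, 31.6 and 0 in the Cur/ZNP gel libraries, against 0, 0, 4.94, 0 and 0 in the ZNP gel libraries (log2 difference 4.47, SE 1.64, 95% interval 1.06 to 7.87). Nefl, the light neurofilament chain, had 43.5, 8921, 9.25, 39.1 and 23.8 in the Cur/ZNP gel and 29.2, 24.2, 27.2, 51.4 and 72.7 in the ZNP gel, and without Cur/ZNP gel 2 its log2 difference was -0.56. Slc18a3, the acetylcholine transporter of vesicles, had 1059 normalized counts in Cur/ZNP gel 2 and 0 in the other 9 libraries. DESeq2 called many such genes. Of its 24 calls, 17 had over 80% of their counts in 1 library, 15 of them in Cur/ZNP gel 2. Among the 10 with its smallest adjusted p-values were Calca (90.2 in Cur/ZNP gel 2, the gene of the nerve peptide CGRP), Dmbx1 (3.48 in Cur/ZNP gel 1), Slc18a3, Lcn9 (13.0 and 7.94 in Cur/ZNP gel 2 and 5), Sval2 (12.02), AABR07051251.1 (6.01), Cdk5r2 (97.2) and the serotonin receptor gene Htr3a (445), each at 0 in the ZNP gel and, for those given with 1 value, at 0 in the other 4 Cur/ZNP gel libraries. DESeq2 on the 10 libraries alone called 23 genes, of which 3 were shared (Nr1d1, Chit1 and AABR07053516.2).

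Schwann cells, which wrap nerve fibres, had 15 of 15 genes above 0, 1 at an unadjusted p under 0.05, and a median of 0.91. S100b, their calcium-binding marker, had 3079.7, 38195, 3454, 3121 and 7963 in the Cur/ZNP gel, against 2060.0, 1890.5, 5379, 2951 and 2631 in the ZNP gel. Cur/ZNP gel 2 and 5 were highest and the other 3 lay within the ZNP gel range (log2 difference 1.19, SE 0.57, 95% interval 0.00 to 2.38). The summed level was 50019, 1412572, 53789.7, 61423 and 285197 in the Cur/ZNP gel libraries, against 68223, 35751, 118558, 70847 and 62446 in the ZNP gel libraries. Without Cur/ZNP gel 2 the median was 0.21 with 0 genes at an unadjusted p under 0.05 and 11 of 15 above 0.

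Vessel and mural cell lists had medians above 0. Of 14 pericyte and smooth muscle genes, 3 were higher and 0 lower with a median of 0.53. Mcam, an adhesion molecule of mural cells and endothelium, had 5598, 8096, 7026, 7367 and 6836 in the Cur/ZNP gel and 4208, 3188, 8391, 4591 and 4644 in the ZNP gel. ZNP gel 3 was the highest of all 10 and the other 4 ZNP gel libraries were below the whole Cur/ZNP gel (log2 difference 0.55, SE 0.22, 95% interval 0.09 to 1.00). Pdgfrb, the receptor that recruits pericytes, was 0.39 (SE 0.18) and Lmod1, an actin nucleator of smooth muscle, 0.71 (SE 0.34). Without ZNP gel 3, 6 of the 14 were higher at an unadjusted p under 0.05, and without ZNP gel 2, 0 were. Over all 16062 genes, 716 were higher without ZNP gel 3 and 148 without ZNP gel 2. Of 21 blood vessel endothelium genes, 1 was higher and 0 lower with a median of 0.24 (Emcn, 0.39, SE 0.19), and 5 were higher without ZNP gel 3. All 9 lymphatic endothelium genes were above 0 with a median of 0.47, and Reln alone had an unadjusted p under 0.05 (0.93, SE 0.38), with its highest value, 11313, in Cur/ZNP gel 2. Adipocyte genes were above 0 in 15 of 16, with a median of 0.44 and 1 higher, the fat cell regulator Pparg (0.71, SE 0.32), or 5 higher without ZNP gel 3. In the fit with the gland covariate, 11 of 16 were above 0 and the median was 0.12.

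Muscle and blood lists overlapped between the groups. Skeletal muscle genes were above 0 in 25 of 26 with a median of 0.32 and 0 at an unadjusted p under 0.05. Their sums overlapped, with 2157356, 1142655, 496932, 2297663 and 3917127 in the Cur/ZNP gel, against 1219608, 495469.6, 798511, 1812947 and 4327869 in the ZNP gel. With the gland covariate, 2 of 26 were above 0 and the median was -0.52. Without ZNP gel 2, 10 of 26 were above 0 with a median of -0.03, and without Cur/ZNP gel 5, 14 were with a median of 0.01, so the list had no steady direction. Hemoglobin and other erythrocyte genes had 0 of 7 at an unadjusted p under 0.05 and a median of 0.10, or -0.15 without ZNP gel 2 and -0.11 with edgeR and TMM factors.

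The keratinocyte lists had medians near 0. Of 15 basal keratinocyte and hemidesmosome genes, 0 were higher and 1 lower with a median of -0.04. Of 21 genes of differentiated keratinocytes and the cornified envelope, 0 were higher or lower, the median was -0.04, and Krt1 was -0.64 with an SE of 0.75.

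Proliferation genes had a difference below 0 in 19 of 21 cases, with 0 higher and 2 lower (unadjusted p under 0.05) and a median of -0.28. Over all genes, 2.41% were higher, 2.7% lower and 46.9% above 0. Pcna, the sliding clamp of DNA replication, had 3172, 2938, 3219, 3222 and 2277 in the Cur/ZNP gel libraries, against 3889.6, 3647, 3817, 3956 and 3445 in the ZNP gel libraries. The groups did not overlap (log2 difference -0.35, SE 0.14, 95% interval -0.64 to -0.05). Rrm2, a subunit of ribonucleotide reductase, was -0.76 (SE 0.36). Genes of endoplasmic reticulum stress and heat shock had 0 higher and 1 lower of 21 with 18 below 0 and a median of -0.29. That 1 was the chaperone gene Pdia4 (-0.65, SE 0.28), and Hspa5, the main chaperone of the secretory pathway, was -0.47 (SE 0.27). With the gland covariate the median of the list was -0.18.

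Stress and hormone responses differed little. Immediate early and stress response genes had 1 higher and 0 lower of 21 with a median of 0.17, namely Zfp36, which destabilizes cytokine mRNA (0.35, SE 0.15). Fos was 0.67 (SE 0.37). Glucocorticoid response genes had 1 higher and 0 lower of 15 with a median of 0.21. It was the receptor gene itself, Nr3c1, with 5923, 5983, 5213, 6735 and 6296 in the Cur/ZNP gel and 5014, 4184, 5673, 5111 and 5060.1 in the ZNP gel. Cur/ZNP gel 3 overlapped ZNP gel 3 and all other Cur/ZNP gel libraries were above the ZNP gel (log2 difference 0.27, SE 0.09, 95% interval 0.07 to 0.46). Wnt, BMP and TGF-beta genes had 1 higher and 0 lower of 30 with a median of 0.07, and the Wnt antagonist gene Dkk2 led them with 2459, 797, 2056, 2343 and 1840.2 in the Cur/ZNP gel, against 756, 701, 1702, 1317 and 925 in the ZNP gel (log2 difference 0.80, SE 0.28, 95% interval 0.22 to 1.37). Cur/ZNP gel 2 was low for Dkk2, within the ZNP gel range, and the other 4 were above it.

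Housekeeping lists had small medians with most members on 1 side of 0. Cytosolic ribosomal protein genes were below 0 in 77 of 83, with 0 higher and 1 lower (unadjusted p under 0.05) and a median of -0.12. That 1 was Rpl39l, a paralog of Rpl39 (-1.12, SE 0.51), whose reads could be shared with its parent gene. The gland covariate gave 11 lower genes and a median of -0.30. The 13 genes of the mitochondrial genome were all above 0 with a median of 0.12, and nuclear genes of oxidative phosphorylation were above 0 in 70 of 75 with a median of 0.14, with 0 at an unadjusted p under 0.05 in either list. Under the gland covariate these medians were -0.11 and -0.13, so their direction flipped with that setting. The nuclear list also turned without Cur/ZNP gel 5, with 20 of 75 above 0 and a median of -0.04. Mitochondrial transcripts took 7.19% to 14.5% of the reads in the Cur/ZNP gel and 9.01% to 14.8% in the ZNP gel.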

How the data were processed

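Stranded libraries depleted of ribosomal RNA were made from TRIzol extracts of gingiva, 1 per rat. The table that the authors deposited holds a signal per Ensembl transcript of Rnor_6.0, in which the reads of each library had been scaled by a DESeq2 size factor. The aligner and counter are not given in the sources used here. After 840 blank lines were skipped, 41078 transcript rows were summed to 30214 genes. Of these rows, 396 had no symbol and were kept under their Ensembl identifier. Every value (100%) was a whole multiple of 1 step per library within 0.01, which gave back whole reads. The size factors of Cur/ZNP gel 2 and 5 (0.998 and 1.01) lie near 1, where steps are harder to tell from whole numbers at low counts.

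Genes with at least 2 CPM in at least 1 library, as in the methods of the study, were tested on log2(value + 1) with limma 3.58.1 (R 4.3.3, trended robust variance, 1 model of 25 libraries), two-sided, with Benjamini-Hochberg adjustment and a threshold of 0.05. A fold change on this scale understates changes of low genes. Since the values carry size factors, edgeR 4.0.16 and DESeq2 1.42.0 ran on the whole reads as alternatives, with other scalings, filters and pseudocounts, a replicate block, transcripts and each library left out. Component scores were compared by exact permutation tests. The fits were also run on simulated counts in which each gene varied independently of the others. Such counts lack tissue content that moves many genes at once, so that run says nothing about its effect here. Genes are named by these rules: the 12 with the smallest p in each direction whose libraries do not overlap, since 0 passed the threshold, with a symbol and a mean log2 CPM of at least 1; up to 3 of each of 39 lists with the smallest p; the genes the study names; and up to 10 DESeq2 calls. Other genes (Dbp, Tef, Ciart, Bhlhe41, Arntl, Per2, Col1a1, Col3a1, Ogn, Fbn1, Pdgfra, Fn1, Aqp5, Agr2, Muc5b, Il1a, Cyp26a1, Chit1, Prrg1, Obp1f, Ldb2, Thra, Dnajb14, Coa8 and Bag5l1) were named after their values were seen. The lists held 774 entries, 35 without a match. Members and lists were chosen with earlier results of these data known. Promoters came from RefSeq tables of GRCr8 by symbol, and Cry1 had no entry. Some genes that these rules select are not reported here.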

Additional observations from a re-analysis of the deposited data

Results flagged for a closer look

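In each group of 5 libraries the gap between the most extreme library and its neighbour was divided by the range of the group, and values above 0.71 were examined. Of 144 groups for 72 genes and summed lists, 13 passed. For normally distributed values chance passes about 1 in 20 such groups. Many of these genes were picked by their values in the same libraries, so that rate need not hold here. The most extreme was the summed neuron list, where Cur/ZNP gel 2 stood above the other 4 Cur/ZNP gel libraries with a gap of 0.963 of the range.

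Single genes in the Cur/ZNP gel with an extreme library were Nr1d1 (Cur/ZNP gel 1 highest, 0.773), Tbx18 (Cur/ZNP gel 3 lowest, 0.711), Micu3 (Cur/ZNP gel 2 highest, 0.724), Rbm14 (Cur/ZNP gel 1 lowest, 0.823), Zfp707 (Cur/ZNP gel 1 lowest, 0.729) and Tnfrsf11b (Cur/ZNP gel 5 highest, 0.714). In the ZNP gel, library 1 was highest for Il1b (0.869) and for the summed levels of interferon-stimulated genes (0.838), inhibitors of bone resorption (0.74) and macrophage genes (0.716). ZNP gel 3 was lowest for the summed salivary gland genes (0.728), and ZNP gel 5 was highest for the summed mitochondrial genome (0.729).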

How the results depend on the processing

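The count of 0 adjusted calls with limma became 24 with DESeq2 on 25 libraries and 23 on the 10 libraries alone, of which 3 genes were shared, and 0 to 1 with 1 library left out (1 without ZNP gel 3). The 820 genes at an unadjusted p under 0.05 became 1329 with DESeq2 on the 10 libraries and 411 (without ZNP gel 2) to 1578 (without ZNP gel 3) with 1 left out, with 445 without Cur/ZNP gel 5, 538 without ZNP gel 1 and 1326 without Cur/ZNP gel 3. The 155 genes without overlap became 201 (without ZNP gel 1) to 748 (without ZNP gel 3), where fewer libraries separate more easily by construction. With the same settings the first component gave -83.1 (exact permutation p = 0.0397) and the second -9.83 (exact permutation p = 0.762) without Cur/ZNP gel 2, against -63.1 and 11.4 with it, and over all libraries left out they ran between -83.1 and -40.8 and between -9.83 and 32.7. The neuron median was 5.49 and 5.46 with edgeR (TMM and RLE) and 5.47 and 5.47 with DESeq2 (25 and 10 libraries), against 1.23 with limma, and 0 to 1.84 with 1 library left out. The clock median was 0.16 to 0.35 with 1 left out.

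A covariate for the log2 summed salivary gland level was chosen after seeing the data. It gave 0 adjusted calls and 640 genes at an unadjusted p under 0.05, and medians of -0.28 for salivary gland (the genes the covariate is made of), 0.12 for clock and -0.30 for ribosomal protein genes. It reversed RT1-A2 (0.10), Cd47 (0.039), Muc5b (0.32), Myh7 (-1.28), Mt-nd1 (-0.069), Mt-nd3 (-0.070), Mt-nd6 (-0.13) and Atp5md (-0.0049). With 1 library left out, Myh7 ran between -0.39 (without ZNP gel 2) and 1.77, Mmp9 between -0.40 (without Cur/ZNP gel 1) and 1.11, Nefl between -0.56 and 1.88 and Scg2 between -0.58 and 2.42 (both lowest without Cur/ZNP gel 2). Except where a value itself shows it, the cause was not tested. Of 4642 fits of 180 named genes, 4630 kept their direction. Same-numbered rats did not deviate together (r -0.38 to 0.39, over 0.1 in 2 of 5 pairs), and a replicate block, which pairs them, gave 0 adjusted calls with 847 genes at an unadjusted p under 0.05 on 25 libraries and 923 on 10. Of 39 list medians, 17 took the other sign in at least 1 alternative and 22 in none. Those 22 include the neuron list, whose median was 0 without Cur/ZNP gel 2. Whether reads or the number of rats set the width of the intervals was not tested.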

Other observations

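Hair-type keratin genes, namely Krt81, Krt83, Krt86 and Krt34, had large weights at the high end of the second component of these 10 libraries. The scores on it were 14.1, 58.7, -44.5, 15.8 and -15.5 in the Cur/ZNP gel libraries, against 13.2, -59.1, 63.3, 14.2 and -60.1 in the ZNP gel libraries. Genes of taste cells and mucous cells (Gnat3, Clca1, Itln1) had the opposite weights.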
